A study of Homo sapiens with 6 samples.

Results

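The transcription factors SOX2, GATA4, GATA6, HNF4A, FOXA1, FOXA2, CDX1 and CDX2 set foregut and intestinal identity in the gut, and their transcripts were followed in AGS cells after silencing of CTNNB1, the gene of beta-catenin. They were found by gene symbol among the transcript clusters (the probe groups that stand for a gene) paired with exactly 1 symbol. Of these 8 genes, 7 had such a cluster, 1 each, out of 19460 clusters and 18417 genes tested, and HNF4A is not analysed here. AGS is a human gastric adenocarcinoma cell line. The cells carried either CTNNB1 siRNA or a control siRNA, each on 3 arrays, and RNA was taken 48 hours after transfection. The labels give no genetic alteration of the line and no siRNA sequence, and 1 cell line was used throughout, so the values describe a single cancer genome. Values are log2 expression from Affymetrix Human Gene 1.0 ST arrays, on which 1 unit is a doubling, and the number of arrays limits their precision.

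In the embryo, SOX2 marks the foregut that gives rise to oesophagus and stomach, whereas CDX2 marks the hindgut epithelium that becomes intestine. GATA4, GATA6, FOXA1 and FOXA2 act earlier and more broadly in endoderm: the FOXA proteins open compacted chromatin, and the GATA proteins bind beside them at stomach, liver and intestinal genes. CDX1 is a close relative of CDX2 and a known target of Wnt signalling in mouse embryos and intestine, and CDX2 in gastric epithelium is a marker of intestinal metaplasia.

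The promoter windows of SOX2 and CDX2 are shown because these factors had the lowest and the highest difference of the 7. They come from RefSeq (GRCh38.p14) and run from 250 bases before to 50 bases after the annotated start of the gene, in the direction of transcription. SOX2 lies at chr3:181711675-181711974 on the plus strand and CDX2 at chr13:27969266-27969565 on the minus strand. Capitals mark exact matches, on either strand, to the letters of 7 motifs, those of TCF/LEF, SOX, GATA, FOXA and CDX proteins, the CCAAT box and the GC box, each spelled out below.
SOX2: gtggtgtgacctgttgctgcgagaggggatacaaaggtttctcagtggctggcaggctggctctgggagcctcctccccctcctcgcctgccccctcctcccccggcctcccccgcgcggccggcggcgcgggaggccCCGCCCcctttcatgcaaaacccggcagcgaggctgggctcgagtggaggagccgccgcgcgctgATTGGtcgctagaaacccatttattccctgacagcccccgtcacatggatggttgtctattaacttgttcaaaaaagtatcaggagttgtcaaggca
CDX2: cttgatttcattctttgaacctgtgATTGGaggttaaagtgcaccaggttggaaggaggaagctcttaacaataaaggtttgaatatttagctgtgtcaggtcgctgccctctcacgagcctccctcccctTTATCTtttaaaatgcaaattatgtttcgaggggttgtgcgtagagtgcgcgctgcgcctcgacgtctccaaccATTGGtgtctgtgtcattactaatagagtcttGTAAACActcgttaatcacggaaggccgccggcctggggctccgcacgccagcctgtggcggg
In the SOX2 window the capitals are a GC box at -112 and a CCAAT box at -47, both on the minus strand of the window, counted from the start site to the match's first base. In the CDX2 window they are CCAAT boxes at -225 and -45, a GATA match at -119 and a FOXA match at -13, all on the minus strand of the window. The GATA letters (AGATAA) occur in 10.3% of 35116 windows of this length. The FOXA letters (TGTTTAC) occur in 3.42% of them, CCAAT in 34.6% and the GC box letters (GGGCGG) in 45%. The TCF/LEF letters (CTTTGAT), a single spelling of the type of site through which beta-catenin reaches DNA, are in 2.62% of all windows. They are in 0 of the 4 windows found for the measured factors, which also include GATA6 and FOXA1. Matches are descriptions of letters in these windows. Other spellings of the motifs and sites outside the windows were not searched, so 0 matches does not show that a window lacks such a site. The SOX letters (ACAATG, in 10.8% of all windows) matched none of the 4 windows. Nor did the CDX letters (TTTATGG, in 2.54%), and none of the 7 motifs contains another.

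The silenced gene was checked first. CTNNB1 had 10.27, 10.78 and 10.58 on the CTNNB1 siRNA arrays, against 11.92, 11.76 and 11.75 on the control arrays, so its level matched the label on all 6. Its log2 difference was -1.27 (SE 0.17), which left 41.6% of the control level (limma, adjusted p = 0.232 over all clusters). The list of 8 beta-catenin pathway genes, CTNNB1 among them, was chosen with earlier results of these data known. All 8 had lower means, and 0 passed limma over all clusters. Groups did not overlap for 4, all lower (50% of the list, against 6.8% of all clusters). Among these 4, AXIN2 differed by -0.45 (SE 0.14), LGR5 by -0.64 (SE 0.22) and ZNRF3 by -0.58 (SE 0.19). The groups of the remaining genes overlapped. Replicate 1 of the CTNNB1 siRNA group was unlike the rest: across clusters its Pearson correlation with the other 5 arrays was 0.962 to 0.965, against 0.983 to 0.988 for pairs without it. The limma test called 1 of 19460 clusters at an adjusted p under 0.05 (0.00514%), AKR1B10, an aldo-keto reductase gene. Of the clusters, 5.64% had an unadjusted p under 0.05.

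**Figure D1:**
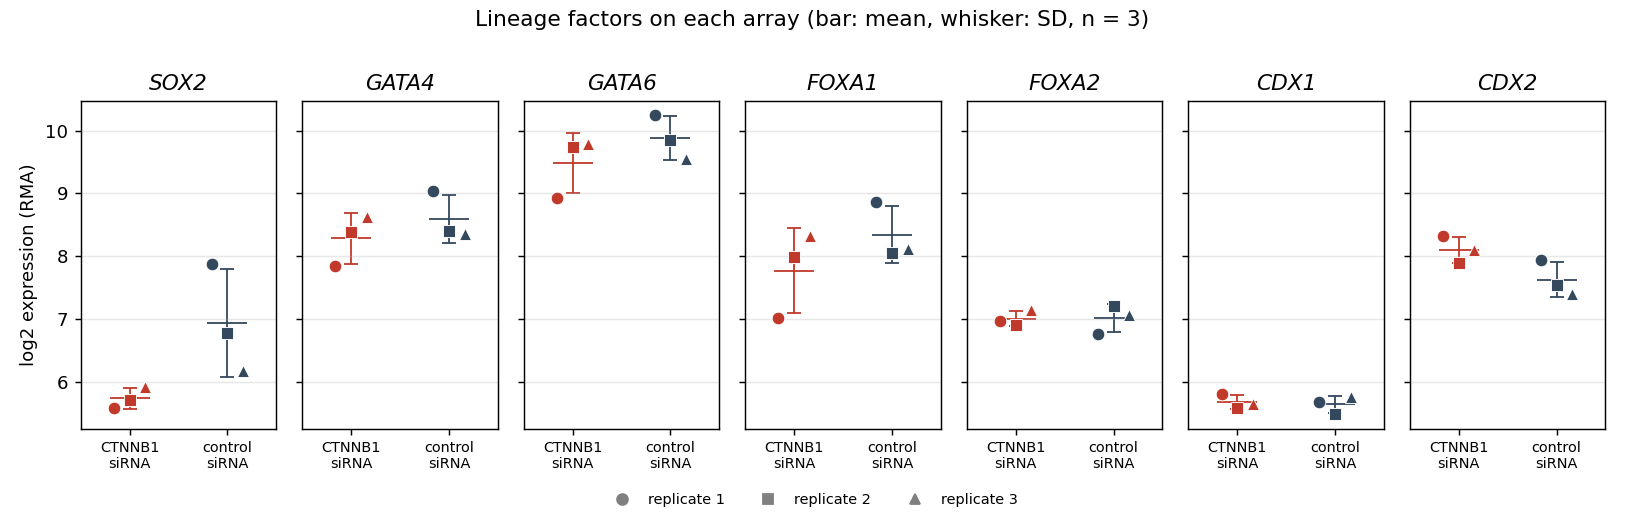
Log2 expression of the 7 measured factors (vertical axis, 1 panel per gene) on each array, CTNNB1 siRNA left and control siRNA right; symbols give the replicate, the bar the mean and the whisker the SD (n = 3 each). SOX2 is the 1 factor whose groups do not overlap, and for SOX2, GATA4, GATA6 and FOXA1 the circle of replicate 1 is the lowest point in the CTNNB1 siRNA group and the highest in the control group.

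SOX2, the foregut factor, had a lower mean after CTNNB1 silencing and the largest difference of the 7 factors, though it did not pass the test. It had 5.58, 5.71 and 5.92 on the CTNNB1 siRNA arrays and 7.87, 6.77 and 6.18 on the control arrays. Every CTNNB1 siRNA array lay below every control array, but the control arrays were themselves far apart, with a range wider than that of the CTNNB1 siRNA arrays. The means were 5.74 ± 0.17 (SD, n = 3) after CTNNB1 siRNA and 6.94 ± 0.86 (SD, n = 3) in control cells, and 0.272% of all clusters had a larger control SD than SOX2. This is a log2 difference of -1.20 (SE 0.38), or 43.4% of control, and the 95% confidence interval runs from 23.6% to 79.7%. In limma its adjusted p over all clusters was 0.816, and the 2-sided exact permutation p was 0.1, the smallest that 3 arrays against 3 can give. Without control siRNA replicate 1 the difference was -0.74, and without both arrays numbered 1, an alternative chosen after the values were seen, it was -0.66. The CTNNB1 siRNA arrays lay near 5.36, the mean under which the dimmest 40% of clusters fall and where the authors' background method compresses differences.

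FOXA1, a pioneer factor that opens chromatin for other regulators, had 7.01, 7.98 and 8.32 on the CTNNB1 siRNA arrays, against 8.86, 8.04 and 8.12 on the control arrays. Replicates 2 and 3 of both groups lay together between 7.98 and 8.32, and the array numbered 1 was the lowest of the CTNNB1 siRNA group and the highest of the control group. Its log2 difference was -0.57 (SE 0.36), with a 95% confidence interval of -1.39 to 0.25 (limma, adjusted p = 0.816).

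GATA6, a zinc finger factor required for endoderm, had 8.93, 9.73 and 9.78 on the CTNNB1 siRNA arrays and 10.24, 9.84 and 9.55 on the control arrays. GATA4, its relative in stomach and proximal intestine, had 7.84, 8.39 and 8.62 after CTNNB1 siRNA and 9.04, 8.40 and 8.35 in control cells. The groups overlapped for both genes, with the same 2 arrays at the extremes as for FOXA1. The log2 difference was -0.39 (SE 0.27; 95% confidence interval -1.02 to 0.23) for GATA6 and -0.31 (SE 0.26; -0.91 to 0.29) for GATA4, with limma adjusted p = 0.816 and 0.823. Exact permutation p-values, 2-sided, were 0.4 for FOXA1, 0.4 for GATA6 and 0.5 for GATA4.

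The lower means of FOXA1, GATA6 and GATA4 rested on the arrays numbered 1. Without both of them, replicates 2 and 3 averaged 8.15 after CTNNB1 siRNA and 8.08 in control cells for FOXA1. They averaged 9.76 after CTNNB1 siRNA and 9.70 in control cells for GATA6, and 8.51 after CTNNB1 siRNA and 8.37 in control cells for GATA4. Those differences were 0.068, 0.065 and 0.13, opposite in sign to the values over all 6 arrays. Without CTNNB1 siRNA replicate 1 alone, the array that stood apart, they were -0.19 for FOXA1, -0.12 for GATA6 and -0.089 for GATA4, and without control siRNA replicate 1 alone -0.31, -0.21 and -0.089. SOX2 shares the extremes, so 4 of the 7 factors had control siRNA replicate 1 highest and CTNNB1 siRNA replicate 1 lowest among the 6 arrays, an order found in 8.81% of all clusters. The part of these arrays' RNA or handling in the order was not tested.

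FOXA2, the second FOXA protein measured and a regulator of gut and liver endoderm, had 6.98, 6.91 and 7.14 on the CTNNB1 siRNA arrays and 6.76, 7.20 and 7.07 on the control arrays. The groups were interleaved. Its means were 7.01 ± 0.12 (SD, n = 3) after CTNNB1 siRNA and 7.01 ± 0.23 (SD, n = 3) in control cells, and the log2 difference was -0.0037 (SE 0.16; 95% confidence interval -0.38 to 0.37; limma adjusted p = 0.996). The interval leaves room for a level between 77% and 129% of control. Unlike FOXA1, it did not have its extremes on the arrays numbered 1 in that order: control siRNA replicate 1 was its lowest array.

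CDX2, the intestinal factor, had a higher mean after CTNNB1 silencing and did not pass the test. Its levels were 8.32, 7.89 and 8.09 on the CTNNB1 siRNA arrays, against 7.94, 7.55 and 7.40 on the control arrays. The groups overlapped by 1 pair of arrays, since control siRNA replicate 1 lay just above CTNNB1 siRNA replicate 2. Means were 8.10 ± 0.21 (SD, n = 3) after CTNNB1 siRNA and 7.63 ± 0.28 (SD, n = 3) in control cells. The log2 difference of 0.47 (SE 0.19), 1.39-fold, had a 95% confidence interval of 0.035 to 0.91 and did not pass over all clusters (limma, adjusted p = 0.816; 2-sided exact permutation p = 0.2). It stayed between 0.36 and 0.63 when any 1 array was left out, and was 0.52 without both arrays numbered 1.

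CDX1, which is encoded by a separate gene and acts beside CDX2 in intestinal epithelium, had 5.80, 5.58 and 5.65 on the CTNNB1 siRNA arrays and 5.68, 5.49 and 5.76 on the control arrays. All 6 arrays lay within a range of 0.31, and the groups overlapped. The difference was 0.032 (SE 0.14; 95% confidence interval -0.30 to 0.36; limma adjusted p = 0.965). CDX1 was the 1 factor whose mean, 5.66, lay below 6.02, the median of all tested clusters, a range in which differences are compressed.

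**Figure D2:**
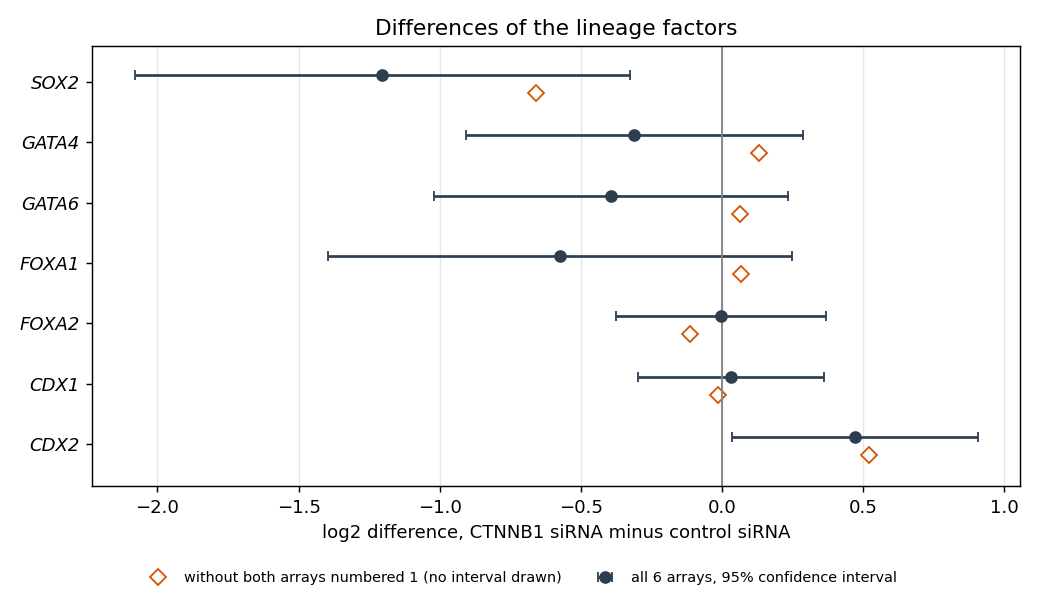
Log2 difference of each factor, CTNNB1 siRNA minus control siRNA (horizontal axis); filled circles with bars are the limma estimate and 95% confidence interval over all 6 arrays, open diamonds the difference of means without both arrays numbered 1. SOX2 moves from -1.20 to -0.66 and CDX2 from 0.47 to 0.52, while FOXA1, GATA6 and GATA4 cross 0.

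Over the 7 factors, 5 had a lower mean after CTNNB1 siRNA and 2 a higher one, where 50.8% of all clusters had a lower mean. None passed limma over all clusters, against 0.00514% called in all. At an unadjusted p under 0.05 there were 2 of 7, SOX2 lower and CDX2 higher, beside 2.6% of all clusters lower and 3.04% higher. Groups did not overlap for 1 of 7, SOX2, near the 13.6% of all clusters with groups apart (6.81% higher and 6.8% lower). SOX2 was also the 1 factor with a difference of at least 1 in size, a size reached by 0.308% of clusters. The median log2 difference was -0.31 over the 7 factors and -0.0045 over all clusters.

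Profiles of the factors over the arrays were compared by the root mean square difference between log2 values, each gene centred on its own mean over the 6 arrays. This measure compares shapes and no levels. GATA4 and GATA6 were the closest pair of the 21, at 0.12, followed by FOXA2 and CDX1 at 0.20, both of which varied little. FOXA1 lay 0.21 from GATA6 and 0.21 from GATA4. SOX2 and CDX2 were the farthest apart, at 0.92.

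For the 5 factors whose SD over the arrays exceeded 0.22, the median of all genes, the 3 genes with the nearest profile were taken from those at or above the median level. For SOX2 they were RPP40, a subunit gene of RNase P (0.25), GEMIN5, of the complex that assembles spliceosomal particles (0.28), and MYB, a transcription factor gene of progenitor cells (0.31). MYB had 6.01, 6.53 and 6.40 on the CTNNB1 siRNA arrays and 8.63, 6.64 and 6.72 on the control arrays, with control siRNA replicate 1 far above the other 5 arrays. Its log2 difference was -1.02. CDX2 lay nearest to SFN, the epithelial 14-3-3 sigma gene (0.050), with CRYBG2 (0.072) and CCNYL1 (0.079) next. SFN had 10.30, 9.88 and 9.94 after CTNNB1 siRNA and 9.88, 9.52 and 9.33 in control cells, a difference of 0.47. Its groups were just apart (9.884 on CTNNB1 siRNA replicate 2, 9.879 on control siRNA replicate 1), whereas those of CDX2 overlapped at the same 2 arrays. The nearest genes were TET3, RAVER2 and SLC36A1 for GATA4 (0.058 to 0.064), PITPNC1, CLOCK and BRPF1 for GATA6 (0.055 to 0.073) and MYADM, PEA15 and EXOSC4 for FOXA1 (0.083 to 0.096). With 6 arrays and 18417 genes, near profiles arise for any gene, and no test was made.

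The other transcription factors of gut and endoderm development that were listed gave the setting for these values. This list and those below were chosen with earlier results of these data known. Their shares beside all clusters are therefore descriptions and not independent evidence. Of 37 measured, 25 had a higher and 12 a lower mean after CTNNB1 siRNA, with a median log2 difference of 0.088, and 0 passed limma over all clusters. Groups did not overlap for 7, all higher, which is 18.9% of the list beside 6.81% of all clusters apart and higher. At an unadjusted p under 0.05 there were 3, all higher (8.11%, beside 3.04% of all clusters). Without CTNNB1 siRNA replicate 1, counts added after the values were seen, 27 of the 37 were higher and 12 were apart and higher (32.4%, beside 13.4% of all genes in that setting). The list's median was 0.025 without CTNNB1 siRNA replicate 3 and 0.058 without control siRNA replicate 1.

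CREB3L3, a membrane-bound factor of liver and enterocyte lipid metabolism, had 6.38, 7.97 and 8.11 on the CTNNB1 siRNA arrays and 5.38, 6.04 and 5.56 on the control arrays. Its log2 difference was 1.83 (SE 0.44; limma adjusted p = 0.816), and limma called it without CTNNB1 siRNA replicate 1 (2.38, adjusted p = 0.0138), with array weights (2.25, adjusted p = 0.0141) and without both arrays numbered 1 (2.24, adjusted p = 0.0449). These 3 settings leave out or weight down CTNNB1 siRNA replicate 1, the array of that group where CREB3L3 was lowest. CREB3L3 stayed uncalled in 10 of 13 alternatives. KLF4, a zinc finger factor of differentiated epithelium, had 8.75, 7.88 and 8.13 after CTNNB1 siRNA and 7.10, 7.19 and 7.11 in control cells. Its difference of 1.12 (SE 0.22; limma adjusted p = 0.747) compares a tight control group with a spread CTNNB1 siRNA group. NR5A2, a nuclear receptor of gut and pancreas, had 7.09, 7.60 and 7.74 on the CTNNB1 siRNA arrays and 6.93, 6.59 and 6.94 on the control arrays, a difference of 0.65 (SE 0.20). XBP1, a factor of secretory cells, differed by 0.42 (SE 0.20), and by 0.22 without CTNNB1 siRNA replicate 1. ELF3, an epithelial ETS factor, differed by 0.33 (SE 0.15).

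SOX9, a factor of progenitor and crypt base cells and a known Wnt target in intestine, had the lowest difference of this list. It had 8.16, 8.83 and 8.97 on the CTNNB1 siRNA arrays and 8.89, 9.25 and 9.05 on the control arrays, a difference of -0.41 (SE 0.23; limma adjusted p = 0.816) with overlapping groups, and -0.16 without CTNNB1 siRNA replicate 1. KLF5, a factor of proliferating gut epithelium, differed by -0.085 (SE 0.25), FOXA3, the remaining FOXA gene, by -0.073 (SE 0.15), and HNF4G, the intestinal relative of HNF4A, by -0.0052 (SE 0.21). Each of these 3 changed sign when certain single arrays were left out. HNF4G had a mean of 4.81, among the dimmest 40% of clusters, as did 15 of the 37.

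**Figure D3:**
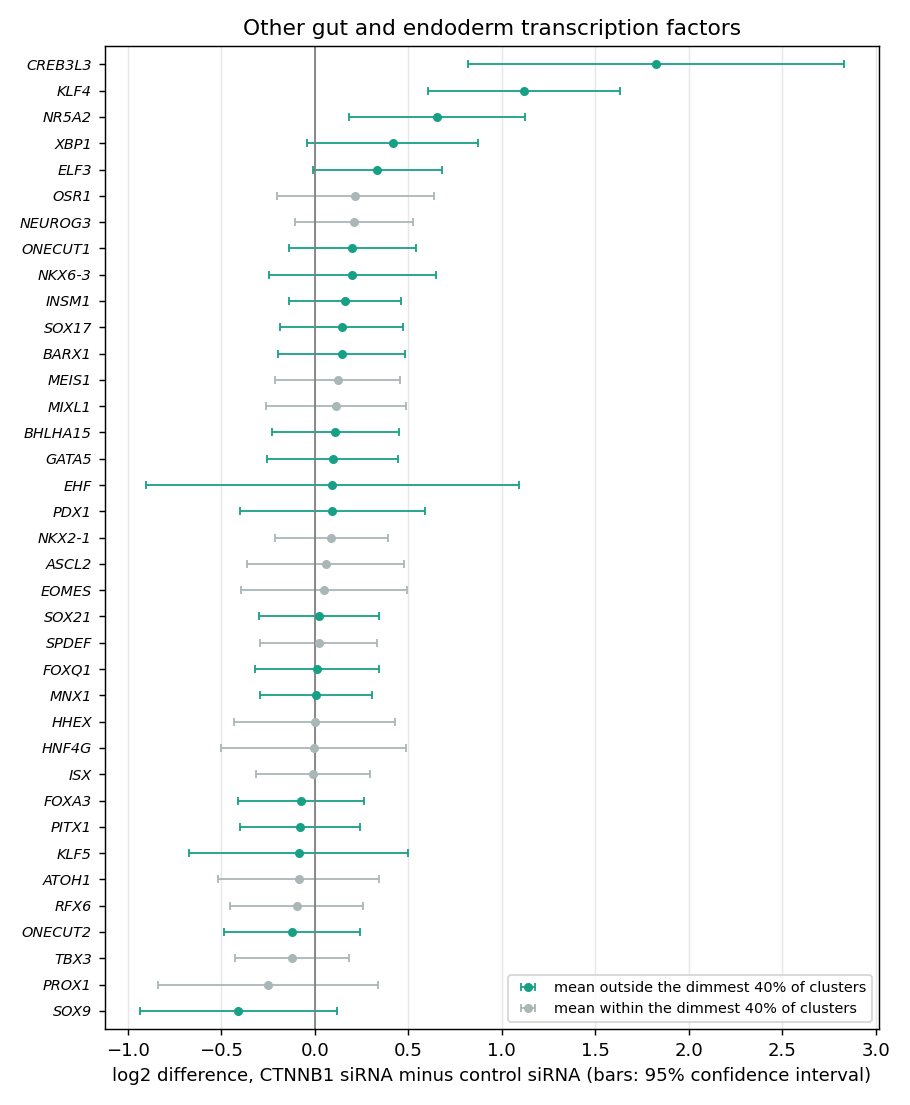
Log2 difference, CTNNB1 siRNA minus control siRNA (horizontal axis), of the 37 other gut and endoderm transcription factors, with 95% confidence intervals from limma over 6 arrays; grey marks genes among the dimmest 40% of clusters. CREB3L3, KLF4 and NR5A2 have intervals wholly above 0, and SOX9 has the lowest estimate.

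Genes that mark the tissues these factors specify were read next, in lists also chosen with earlier results of these data known. Among 33 measured intestinal genes 25 had a higher mean after CTNNB1 siRNA and 8 a lower one, with a median log2 difference of 0.15. Of the 33, 22 were among the dimmest 40% of clusters, where differences are compressed. Groups were apart for 10, all higher (30.3% of the list, against 6.81% of all clusters), and 0 passed limma over all clusters. MUC17, a transmembrane mucin gene, had 6.35, 6.65 and 7.21 on the CTNNB1 siRNA arrays and 4.71, 4.69 and 4.87 on the control arrays (log2 difference 1.98, SE 0.22; limma adjusted p = 0.0935). Its control values lay under 5.36, the mean under which the dimmest 40% of clusters fall. LGALS4, a gut galectin gene, differed by 1.52 (SE 0.22; adjusted p = 0.307 in limma), and MUC13, another membrane mucin gene, by 1.31 (SE 0.19; 0.307). CDHR5, a cadherin gene of the brush border, differed by 0.73 (SE 0.21). Limma called MUC17 without CTNNB1 siRNA replicate 1 (2.18, adjusted p = 0.0138), the array of that group where MUC17 was lowest. With array weights it called MUC17 (adjusted p = 0.00435), LGALS4 (0.0344), MUC13 (0.0219) and KRT20, a keratin gene of differentiated enterocytes (0.0219). The weights counted CTNNB1 siRNA replicate 1 least (0.23). Within their group, MUC17 and KRT20 were lowest on that array, and LGALS4 and MUC13 were highest on it. MUC17 stayed uncalled in 11 of 13 alternatives, and LGALS4 and MUC13 in 12 of 13 each. KRT20, among the dimmest 40% of clusters, stayed uncalled in 11 of 12. Without CTNNB1 siRNA replicate 1, 26 of the 33 were higher and 16 apart and higher (48.5%, beside 13.4% of all genes), with a median of 0.26, whereas the median was 0.069 without CTNNB1 siRNA replicate 3.

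CDH17 and VIL1, known targets of CDX2 in intestine, had overlapping groups. CDH17, the liver-intestine cadherin gene, had 9.92, 10.52 and 10.57 after CTNNB1 siRNA and 10.15, 10.44 and 10.50 in control cells, a difference of -0.023 (SE 0.21). VIL1, the villin gene of the brush border, had 10.24, 9.09 and 9.23 on the CTNNB1 siRNA arrays and 9.38, 9.00 and 8.96 on the control arrays. The VIL1 difference of 0.41 (SE 0.30) was 0.044 without CTNNB1 siRNA replicate 1.

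Of 23 measured genes of the stomach, an organ in which SOX2 acts, 12 were higher and 11 lower after CTNNB1 siRNA, with a median log2 difference of 0.045. Among the 23, 14 were in the dimmest 40% of clusters. Without CTNNB1 siRNA replicate 1, 18 were higher and 5 lower, with a median of 0.10, and without control siRNA replicate 1 the median was 0.021. Groups were apart for 6, all higher (26.1% of the list, against 6.81% of all clusters), and 0 passed limma over all clusters. TFF1, the trefoil peptide gene of surface mucous cells, had 9.17, 7.39 and 7.63 on the CTNNB1 siRNA arrays and 6.30, 6.29 and 6.23 on the control arrays, a difference of 1.79 (SE 0.42) and of 1.24 without CTNNB1 siRNA replicate 1, where limma called it (adjusted p = 0.0336). PSCA, a surface antigen gene of stomach, differed by 0.96 (SE 0.19) and MUC1, a membrane mucin gene, by 0.82 (SE 0.16). PSCA was called by limma with array weights (adjusted p = 0.0491). These weight down CTNNB1 siRNA replicate 1, the array of that group where PSCA was lowest. TFF1 and PSCA each stayed uncalled in 12 of 13 alternatives.

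Apolipoprotein and serum protein genes, which HNF4A and the FOXA factors are known to activate in liver, had a median of 0.057 over 31 measured members, 21 higher and 10 lower. Groups were apart for 1 gene higher, TM4SF4 (3.23% of the list, against 6.81% of all clusters), and for 2 lower, APOM and G6PC1 (6.45%, against 6.8%), shares no larger than those of all clusters, and 23 of the 31 were among the dimmest 40% of clusters. APOB, the structural protein gene of lipoproteins, differed by 0.021 (SE 0.13). In this list 0 passed limma over all clusters. Its median was 0.014 without control siRNA replicate 1 and -0.047 with the dimmest 40% left out. In that setting the median was 0.52 for the intestinal and 0.19 for the gastric genes, with 22 of 33 and 14 of 23 left out. It ranks clusters by their mean over both groups. Some genes, MUC17 among them (control mean 4.75, under the cut of 5.36), therefore stayed in only through higher CTNNB1 siRNA arrays. These 2 medians are thus not independent of the difference, and nothing is concluded from them. The 6 measured pluripotency genes, a setting in which SOX2 is also expressed, had a median of -0.053, with 0 groups apart and 4 of 6 among the dimmest 40%. Of 9 measured squamous genes, which SOX2 accompanies in oesophagus, 7 were among the dimmest 40%, and their median was 0.0040. Leaving out 1 array, the median lay between -0.14 and -0.029 for the pluripotency genes and between -0.037 and 0.12 for the squamous genes.

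**Figure D4:**
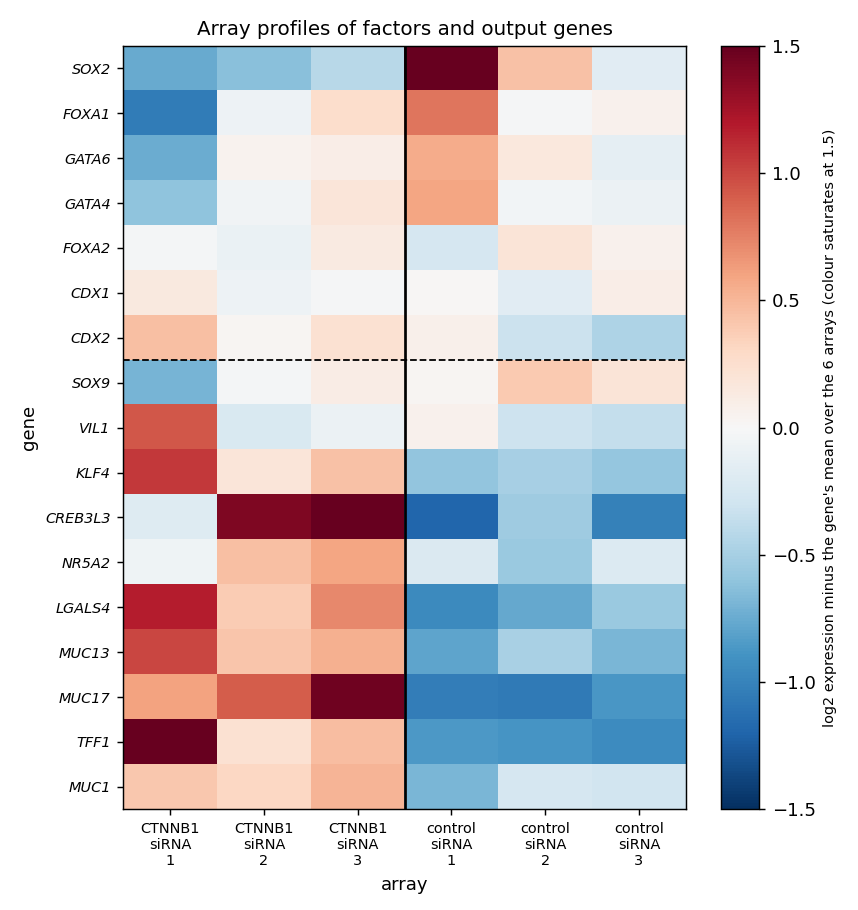
Log2 expression minus each gene's mean over the 6 arrays (colour, red higher and blue lower, saturating at 1.5) for the 7 measured factors above the dashed line and for 10 other factors and tissue genes named in the text below it; columns are arrays, CTNNB1 siRNA left of the solid line. SOX2, FOXA1, GATA6 and GATA4 are lowest on CTNNB1 siRNA replicate 1 and highest on control siRNA replicate 1, while LGALS4, MUC13 and MUC17 are red on all 3 CTNNB1 siRNA arrays.

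The cells carried the epithelial markers of their label. All 8 epithelial genes (EPCAM, CDH1, KRT8, KRT18, KRT19, CLDN4, CLDN7 and ELF3) lay at or above the median level of all clusters. Their mean log2 level was 10.24 to 10.55 on the CTNNB1 siRNA arrays and 9.92 to 10.05 on the control arrays. The mean of the list was thus higher on every CTNNB1 siRNA array, but not every gene was. Of the 8, 7 had a higher mean and 1, CLDN7, a lower one (-0.086). Groups were apart for 3, all higher (37.5% of the list, against 6.81% of all clusters). They overlapped for CDH1 (0.016) and EPCAM (0.13). KRT19, a keratin gene of simple epithelium, differed by 0.96 (SE 0.36) and CLDN4, a tight junction gene, by 0.67 (SE 0.24), and neither passed limma over all clusters (adjusted p = 0.816 each). Without CTNNB1 siRNA replicate 1 they differed by 0.54 and 0.42, and the part of this shift in the factors' values was not tested. Fibroblast and endothelial markers averaged 4.27 to 4.40 after CTNNB1 siRNA and 4.21 to 4.31 in control cells, with 9 of 10 among the dimmest 40%. Immune markers averaged 5.46 to 5.90 after CTNNB1 siRNA and 5.64 to 5.79 in control cells, with 5 of 8 among the dimmest 40%, among them the pan-leukocyte gene PTPRC at 2.60 to 2.79. In that list LYZ, the lysozyme gene, was at a mean of 12.80 after CTNNB1 siRNA and 13.07 in control cells, and CD68, a lysosomal protein gene, at 8.54 after CTNNB1 siRNA and 8.01 in control cells (limma unadjusted p = 0.0469, adjusted p = 0.816). The part of either in the factors' values was not tested. In bulk RNA such as this, fewer cells expressing a factor and less RNA per cell cannot be told apart.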

How the data were processed

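Total RNA of AGS cells (500 ng per sample) was profiled on 6 arrays, 3 per siRNA. Per the submitters' processing notes, the authors made the deposited log2 values in Affymetrix Expression Console 1.1 by RMA. This method corrects background, equalises the arrays' distributions and summarises the probes of a transcript cluster, so a shift shared by all transcripts would not be seen, and dim clusters are compressed. The genome build is not given in the sources used here. The log2 scale was taken from the values (0.92 to 14.3).

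Of 33297 clusters, 19460 were paired with exactly 1 symbol by the platform annotation and tested, 1754 had several and 12083 were not listed. Symbols were updated by gene identifier from RefSeq GRCh38.p14 for 19429. The highest-mean cluster stood for a gene. limma 3.58.1 (lmFit, eBayes) in R 4.3.3 compared the groups, 2-sided, with Benjamini-Hochberg adjustment over all tested clusters, a threshold of 0.05, and no filter, block or weights. The procedure was tested on simulated data in which each gene had independent noise of equal spread on every array. That setting holds no array that stands apart, as CTNNB1 siRNA replicate 1 does here. Nothing says that replicates came from separate passages, so a p-value covers only the spread between these arrays.

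The factors and the gene lists were chosen with earlier results of these data known. The genes named are the factors, CTNNB1, AXIN2, LGR5, 14 genes named whatever their result, up to 4 members of each list with the largest difference among those with groups apart and a group mean at or above the median, and for each variable factor the 3 nearest profiles. Not every gene allowed is named. AKR1B10, TM4SF4, APOM and G6PC1, KRT20 and HHLA2 for their calls in alternatives, and PTPRC, LYZ and CD68 for their levels, were chosen after their values were seen. Alternatives left out each array, added the replicate number as a block, weighted arrays, left out the dimmest 40% of clusters, centred or renormalised arrays, or fitted a variance trend.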

Additional observations from a re-analysis of the deposited data

How the results depend on the processing

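The 7 factors stayed short of the threshold in all 13 alternatives, with smallest limma adjusted p-values of 0.474 for SOX2 and 0.464 for CDX2. SOX2 lay between -1.59 and -0.74 and CDX2 between 0.36 and 0.63 when any 1 array was left out, FOXA1 between -0.85 and -0.19, GATA6 between -0.56 and -0.12, GATA4 between -0.48 and -0.089, FOXA2 between -0.13 and 0.091, CDX1 between -0.043 and 0.091, and CTNNB1 between -1.39 and -1.13. Without both arrays numbered 1, chosen after the values were seen, the sign turned for GATA4 (0.13), GATA6 (0.065), FOXA1 (0.068), CDX1 (-0.015), KLF5 (0.095), CDH17 (0.077) and APOB (-0.012). Sign also turned for FOXA2 (0.018) and CDX1 (-2.96e-05) with quantile normalization repeated, and for CDX1 (-0.039), KLF5 (0.091) and CDH17 (0.091) with array weights. Leaving out 1 array, KLF5 lay between -0.25 and 0.21, HNF4G between -0.12 and 0.21, FOXA3 between -0.17 and 0.015, CDH17 between -0.14 and 0.18 and APOB between -0.026 and 0.063. Array weights called CTNNB1 (-1.12, limma adjusted p = 0.0219) and 13 clusters in all. The count of called clusters, 1 over all arrays, ranged over 0 to 10 on leaving out single arrays, 0 without the dimmest 40% (670 at an unadjusted p under 0.05 in limma) and 2 without both arrays numbered 1 (CREB3L3 and HHLA2). With the replicate number as a block it was 0, with 1123 at an unadjusted p under 0.05. The numbers mark no shared batch in the labels, and same-numbered arrays had correlated deviations from their group means of 0.092, 0.12 and 0.098; each array correlated best with its own number, a hint from the data and not the design. Each factor had 1 cluster, so averaging several clusters of a gene gave no value. The cause of these shifts was not tested.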
